A study of Mus musculus with 6 samples.

Results

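H3K4me3, the trimethyl mark on lysine 4 of histone H3, was compared between cultured natural killer (NK) cells with and without the Tcf7 gene. The distinct peaks of the WT list (13771) and of the KO list (11074) were merged wherever they overlapped by at least 1 bp, which gave 14113 regions. Of these, 10615 (75.2%) held peaks of both libraries, 3102 (22.0%) of WT alone and 396 (2.81%) of KO alone. The 2 libraries belong to a series of 6, in which input DNA, Tcf1 and H3K4me3 were sequenced for both genotypes. The WT cells (Tcf7+/+) came from strain B6, and the KO cells (Tcf7-/-) from strain B6.129 Tcf7Tm1Cle. Both were NK cells of the spleen that had been kept for 5 days with IL-2 at 500 ng/mL. The sources used here do not give the sex, age or number of the animals behind each library. Each genotype had 1 H3K4me3 library, so differences between the genotypes were not checked against replicates, p-values are left out, and strain and genotype cannot be told apart.

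NK cells are innate lymphocytes, which destroy virus-infected and tumour cells by releasing perforin and granzymes. H3K4me3 is deposited around the starts of genes that are transcribed or poised, most readily where CpG dinucleotides are dense, and broad domains of it lie over genes that define a cell type. Tcf1, the product of Tcf7, is a DNA-binding factor of the Tcf/Lef family that acts downstream of Wnt signalling and early in NK cell development. Hypoxia-inducible factors (HIFs), which recur below, are transcription factors that switch on glycolytic, angiogenic and mitochondrial genes when oxygen is scarce or when lymphocytes are activated.

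Relative to the median region, regions at the starts of HIF targets (median log2 ratio of KO over WT -0.51) and glycolytic genes (-0.28) held fewer tags or covered less DNA in KO, and regions at replication (0.33) and mitosis genes (0.39) held more tags. Promoters of genes from both sides of this contrast are shown first, from 250 bases before to 50 bases after the start, as RefSeq gives them on GRCm38.p6. Ak4 and Vegfa had the lowest tag ratios among the HIF targets, and capitals mark the core of the hypoxia response element (ACGTG or GCGTG, on either strand).

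Ak4 (chr4:101419039-101419338, plus strand): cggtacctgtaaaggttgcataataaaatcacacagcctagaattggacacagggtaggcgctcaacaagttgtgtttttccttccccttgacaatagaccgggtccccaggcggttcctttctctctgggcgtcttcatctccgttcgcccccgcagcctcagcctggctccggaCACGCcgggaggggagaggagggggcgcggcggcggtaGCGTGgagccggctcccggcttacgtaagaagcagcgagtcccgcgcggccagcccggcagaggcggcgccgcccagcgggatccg
Vegfa (chr17:46032328-46032627, minus strand): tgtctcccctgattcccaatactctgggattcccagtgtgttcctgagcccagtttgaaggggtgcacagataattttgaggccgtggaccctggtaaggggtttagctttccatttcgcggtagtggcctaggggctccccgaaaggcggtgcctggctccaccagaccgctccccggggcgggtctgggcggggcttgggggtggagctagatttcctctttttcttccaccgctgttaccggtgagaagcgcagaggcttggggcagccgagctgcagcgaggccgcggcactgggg

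The Ak4 window held 2 such matches and the Vegfa window 0. Prim1 had the highest ratio among replication genes, and Cdk1 and Plk1 had the highest among mitosis genes. Capitals mark the E2F motif (TTCCCGC or TTGGCGC) in Prim1, and the cell cycle homology region (CHR, TTTGAA) in Cdk1 and Plk1, on either strand. Other matches are left in lower case. The Plk1 window also held 2 hypoxia cores, the Cdk1 window 1 and the Prim1 window 0. Cdk1 held 1 E2F match as well, and Vegfa 1 CHR. The window of Mcm2, the next highest replication gene (0.79), held 0 E2F matches and is not shown.

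Prim1 (chr10:128014965-128015264, plus strand): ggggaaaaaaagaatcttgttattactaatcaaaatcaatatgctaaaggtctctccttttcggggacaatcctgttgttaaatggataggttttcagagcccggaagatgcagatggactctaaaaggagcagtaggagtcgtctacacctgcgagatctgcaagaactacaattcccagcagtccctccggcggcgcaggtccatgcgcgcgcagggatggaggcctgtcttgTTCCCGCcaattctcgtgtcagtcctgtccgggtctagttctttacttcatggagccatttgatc
Cdk1 (chr10:69352863-69353162, minus strand): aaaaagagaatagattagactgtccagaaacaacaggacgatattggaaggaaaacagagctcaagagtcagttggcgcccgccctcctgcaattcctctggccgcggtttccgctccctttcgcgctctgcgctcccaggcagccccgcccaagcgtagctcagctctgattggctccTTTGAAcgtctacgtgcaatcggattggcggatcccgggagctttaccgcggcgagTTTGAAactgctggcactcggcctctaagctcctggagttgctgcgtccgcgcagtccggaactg
Plk1 (chr7:122159185-122159484, plus strand): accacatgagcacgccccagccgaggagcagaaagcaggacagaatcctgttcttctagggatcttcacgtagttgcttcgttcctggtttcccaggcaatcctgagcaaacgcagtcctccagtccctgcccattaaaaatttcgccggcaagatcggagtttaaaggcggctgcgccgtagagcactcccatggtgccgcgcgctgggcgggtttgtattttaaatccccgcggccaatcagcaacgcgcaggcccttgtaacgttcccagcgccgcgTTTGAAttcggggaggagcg

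Among the 10 regions of lowest ratio was that of Mir210, which encodes a microRNA known as a HIF target. Its mature RNAs, from RefSeq, are shown with the seed (bases 2 to 8) in capitals.

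mmu-miR-210-3p (chr7:141221407-141221428, GRCm38.p6, minus strand): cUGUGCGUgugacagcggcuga
mmu-miR-210-5p (chr7:141221445-141221466, GRCm38.p6, minus strand): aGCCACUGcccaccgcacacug

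Tags are reads that the peak caller counted in a peak, and they were not scaled to depth. In the regions called in both libraries, WT peaks held 6373757 tags over 26182 kb (243 tags per kb), and KO peaks held 7488577 tags over 24722 kb (303 tags per kb). The median region had 491 tags and 2205 bp in WT, and 591 tags and 2112 bp in KO. The median ratio of KO over WT was 1.19, or 0.25 on the log2 scale, and every tag ratio below is a log2 ratio from which this median was subtracted. Peaks were called separately in each library, so a sum of tags moves with the width called. Ratios per kb of peak, centred in the same way, and the width ratio (log2 of bp in KO over bp in WT, not centred) were therefore also computed. A ratio given with no unit is a tag ratio, and that per kb is added for many genes where it differs. Intervals are 95% Poisson intervals that cover counting error only, and PCR copies were not identified.

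The label was checked against markers of blood cells. Of 11 NK cell markers, 10 had a region within 1 kb of their start in both libraries, with a median tag ratio of 0.00. Ncam1 was called in neither. Of 10 T cell markers, Cd3e (64 tags) and Cd3d (35 tags) were called in WT alone and the other 8 in neither library. No B cell marker (0 of 8) and no gene foreign to blood (0 of 8) was called. Of 10 myeloid markers, Itgax, which NK cells also express, was called in both, Cd14 in WT alone (95 tags) and 8 in neither. Of 6 erythroid markers, Klf1 was called in both, Epor in WT alone (56 tags) and 4 in neither. The region of Xist, the RNA that silences an X chromosome in females, held 539 tags in WT and 537 in KO. Of 5 Y-linked genes, Ddx3y (116 tags), Eif2s3y (96), Uty (80) and Kdm5d (48) were called in KO alone and Zfy1 in neither. Of all 13 regions on chromosome Y, 4 were called in KO alone, 2 in both and 7 in WT alone, and these 7 lay inside or between genes. The libraries thus differed in marks at Y-linked gene starts as well as in genotype, and the part of this difference in other results was not tested. In bulk chromatin, fewer cells with a mark and less of the mark per cell cannot be told apart. Median tag ratios of the autosomes lay between -0.03 and 0.04, and that of the X chromosome was 0.05.

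At Tcf7 itself, the gene that was disrupted, a region over the start (chr11:52280297-52283965) held 525 tags in WT and 535 in KO. Its tag ratio was -0.22 (interval -0.40 to -0.05), and 0.07 per kb. The mark at this start was thus present in both libraries, and it does not measure the protein.

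Whether a region was called in the other library depended on its tags. Of regions with under 50 WT tags, 8.52% (Wilson 95% interval 7.11 to 10.2%) were called in KO. The share was 20.7% from 50 to 99 tags, 66.5% (64.3 to 68.7%) from 100 to 199, 96.2% from 200 to 399 and 99.6% from 400 to 799. KO regions were found in WT at lower tag counts, with 9.20% (6.52 to 12.8%) under 50 tags, 80.1% (75.9 to 83.7%) from 50 to 99 and 98.6% from 100 to 199. The highest deposited false discovery rate (FDR) was 1.39% in WT and 29.52% in KO. Regions of WT alone were weak, with a median of 60 tags and 1240 bp, and held 3.94% of all WT tags. Regions of KO alone had a median of 37 tags and 885.5 bp and held 0.256% of KO tags. A region called in 1 library is therefore described as not called in the other, which is not a count of 0. With lists cut to equal length by score, 788 regions were of WT alone and 752 of KO alone.

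**Figure D1:**
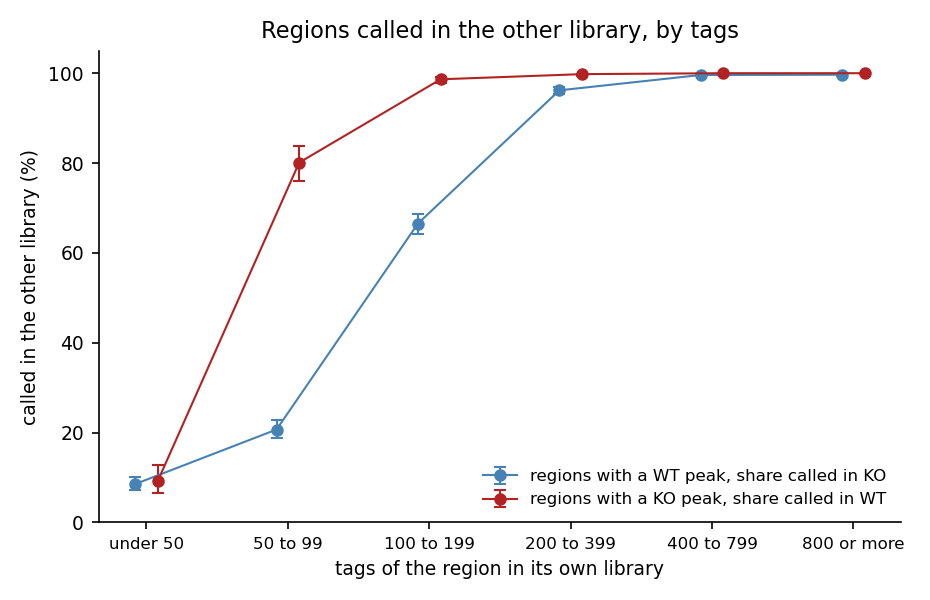
Share of H3K4me3 regions of 1 library that were called in the other (y axis, percent, with Wilson 95% intervals for counting error) by the region's tags in its own library (x axis). The curve of WT regions reaches 66.5% at 100 to 199 tags, where that of KO regions stands at 98.6%.

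Position separated the shared regions from the others. Of 10725 regions at a protein-coding start, 87.1% were called in both libraries, 12.6% in WT alone and 31 (0.289%) in KO alone. Inside genes, away from starts, 38.0% of 1826 regions were called in both, 52.5% in WT alone and 175 (9.58%) in KO alone. Between genes 22.8% of 1063 were called in both, 60.4% in WT alone and 179 (16.8%) in KO alone. Regions inside genes and between genes were also weaker, with medians of 82 and 52 WT tags against 466 at coding starts.

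Regions called in 1 library with the most tags were of several kinds, and many lay in repeated DNA, where reads cannot be placed with certainty. In WT alone, a region over the ribosomal RNA locus Rn18s-rs5 (chr17:39842642-39849368) held 9716 tags, and one on chromosome 14 (chr14:19415194-19419844) held 5674. Both overlapped peaks of the Tcf1 antibody in both genotypes, KO included. The region inside Erdr1, at the end of the X chromosome, held 1952 tags, and 3 regions in a cluster on chromosome 8 held 1098, 1060 and 1030. A region near the end of the Y chromosome had 824 tags. The region of Hjurp (chr1:88272351-88278823), which encodes the chaperone of the centromeric histone CENP-A, lay at a coding start and held 1747 tags. It also covered a start of Trpm8.

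In KO alone, the region with the most tags lay inside Coro2a (chr4:46575896-46579706, 378 tags), which encodes an actin-binding protein. A pair of regions in the same cluster of chromosome 8 (307 and 287 tags) and one inside Sp110 and Sp140 (265 tags) overlapped a Tcf1 antibody peak called in KO alone. Regions inside Zfp683, which encodes the lymphocyte factor Hobit, and inside Grk5, a receptor kinase gene, held 187 and 186 tags. Regions between genes on chromosomes 15 and 12 held 166 and 162 tags, and the former overlapped a Tcf1 antibody peak in both genotypes. Tcf1 antibody peaks of either genotype overlapped 18.2% of the regions of KO alone, 7.51% of those of WT alone and 0.528% of those called in both. Antibody peaks called in KO alone, from Tcf7-/- cells, accounted for 69 of the regions of KO alone and 171 of those of WT alone. Antibody peaks called in WT alone accounted for 1 and 13, and those called in both genotypes for 2 and 49. Without any region at a Tcf1 antibody peak, 324 regions were of KO alone and 2869 of WT alone.

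Among regions called in both, the tag ratios had an SD of 0.34 and quartiles of -0.15 and 0.14. Of 10356 regions that held 100 tags or more in either library, 44 (0.425%) had a ratio above 1, a 2-fold difference, and 166 (1.6%) a ratio below -1. Taken per kb these counts were 7 and 82, so the share of higher regions among those beyond 2-fold was smaller per kb. Beyond 0.5 the counts were 203 (1.96%) and 803 (7.75%). The spread was larger where tags were few. With regions split into 10 bins of tags, the SD was 0.17 in the bin with the most tags (median 1448 in WT) and 0.56 in the bin with the fewest (median 111). The median ratio was -0.11 in the lowest bin, 0.06 in the fifth and -0.04 in the highest.

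Coding starts held 9256 of the 10356 regions with 100 tags or more, the insides of genes 580 and the stretches between genes 201. Of the 44 higher regions, 12 lay at a protein-coding start, 19 between genes, 7 inside genes, 5 at a noncoding start and 1 at the end of a gene of unknown strand. Of the 166 lower regions, 121 lay at a protein-coding start, 29 inside genes, 6 between genes, 9 at a noncoding start and 1 at an end of unknown strand. At coding starts 0.13% of regions were higher and 1.31% lower, inside genes 1.21% and 5%, and between genes 9.45% and 2.99%. The higher regions were weak in WT, with medians of 54 tags in WT and 177 in KO, and had a median width ratio of 0.64. The lower regions had medians of 281.5 and 142 tags and a median width ratio of -0.44.

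The lowest ratio belonged to Kbtbd11, with 631 tags in WT and 119 in KO (-2.66, interval -2.94 to -2.37, and -1.86 per kb). Ak4, Vegfa, Mir210 and Scd1, described below, were among the 10 lowest. The others at a gene start were Bahcc1 (723 and 211 tags, -2.03), Zfp521, which encodes a zinc finger protein of blood progenitors (191 and 59 tags, -1.94), and the pseudogene Klra13-ps of the Ly49 cluster (342 and 80 tags, -2.35). Regions inside Fli1, an ETS factor gene (411 and 109 tags, -2.16), and inside Bcor, a corepressor gene (427 and 116 tags, -2.13), lay 30.46 and 22.38 kb from the start of their gene. All 10 were wider in WT, and per kb these last 5 came to -0.69, -0.49, -0.75, -0.47 and -0.97.

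The highest ratios were found in weaker regions. Rnf220, which encodes a ubiquitin ligase, held 64 tags in WT and 519 in KO at 1 of its starts (2.77, interval 2.40 to 3.14, and 1.37 per kb). A second region, inside the same gene, held 38 and 179 tags (1.99, and 1.25 per kb). A region between genes at chr17:6475829-6477665 held 78 and 432 tags (2.22, and 2.03 per kb) at nearly equal width (1676 and 1837 bp). The 7 others held 30 to 46 tags in WT and 131 to 213 in KO. Of the 10 highest, those of Rnf220 and the predicted gene Gm52512 lay at a coding start. At coding starts of named genes, ratios above 1 included Pik3c3, the class III phosphoinositide kinase gene (238 and 736 tags, 1.38, and 1.08 per kb), Entpd1, which encodes the ectonucleotidase CD39 (340 and 862, 1.09, and 0.62 per kb), and Gpx8 (111 and 296, 1.17, and 0.38 per kb). These 3 were chosen after their values were seen.

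The region with the same position as miR-210 (chr7:141219484-141222196) held 605 tags in WT and 186 in KO, a ratio of -1.95 (interval -2.19 to -1.71) and -1.22 per kb. WT peaks covered 2713 bp there, and KO peaks 1566 bp. The region at Mir146b, another microRNA gene, chosen after its value was seen, went the other way with 66 and 187 tags (1.25, interval 0.85 to 1.66). Per kb this was 0.77.

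Gene classes were then described by the region with most tags within 1 kb of a start. Of 21685 protein-coding genes, both libraries called 10294, and neither called 10086. WT alone had 1274 (5.88%) and KO alone had 31 (0.143%). Of genes called in both, 53.3% had a tag ratio above 0 and 46.7% below, with a median of 0.02 and an SD of 0.29. The counting interval lay above 0 for 21.8% and below 0 for 20.2%, and 64.5% were narrower in KO. Of 10208 genes with at least 100 tags, 11 (0.108%) lay above 1 and 109 (1.07%) below -1, and 141 (1.38%) above 0.5 and 583 (5.71%) below -0.5. A width ratio below -0.5 was found for 236 (2.31%). These shares are the background for the counts that follow. Of the 547 genes listed in 39 classes, 10 were not measured, among them Zfp683, Nlrc5, Mx1, Mx2 and Bnip3l. Classes share members and neighbouring genes share regions, so counts over genes are not independent.

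**Figure D2:**
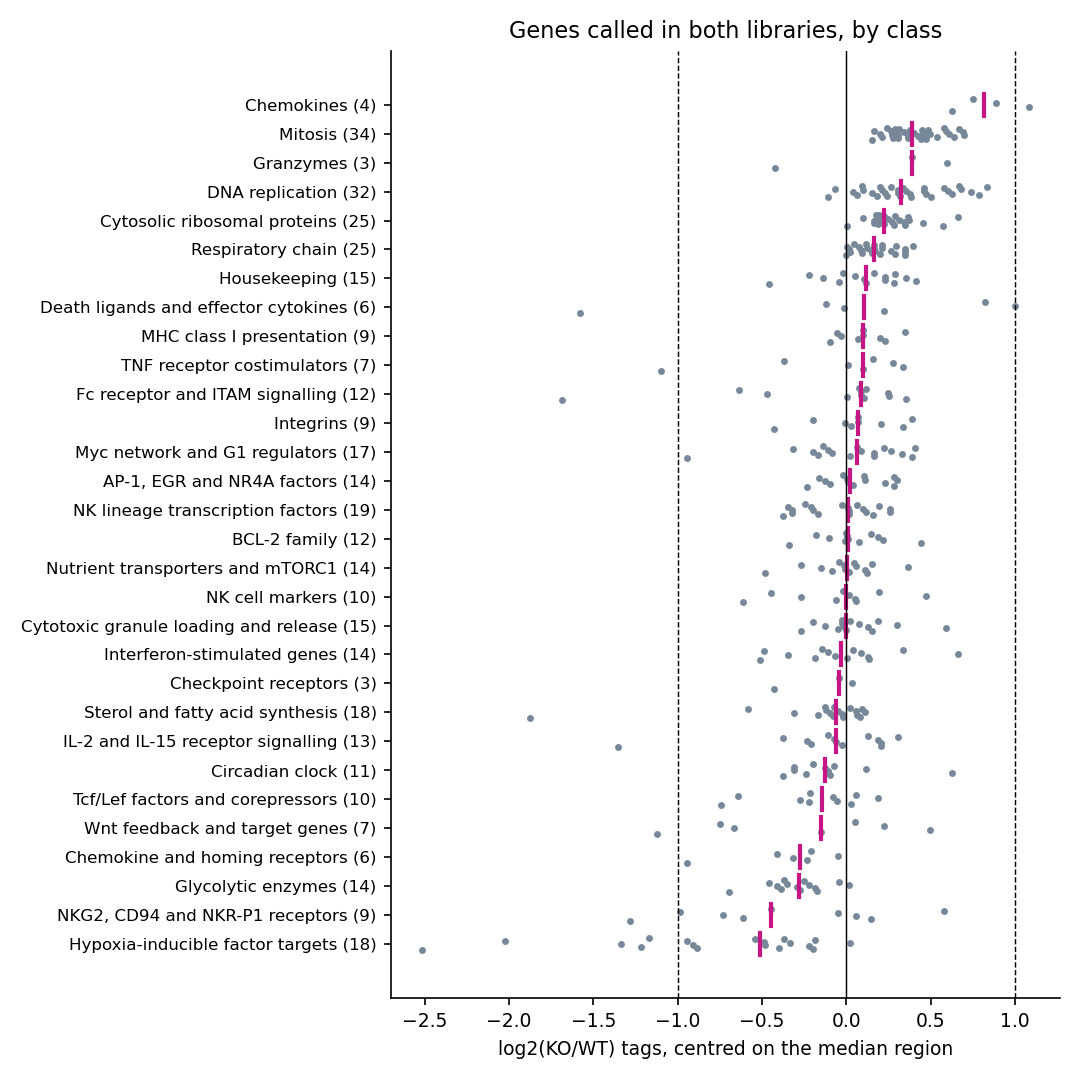
Tag ratios (x axis, centred log2 ratio of KO to WT) of the members of each gene class called in both libraries (points; number of genes in brackets) with the class median (bar), for classes with at least 3 such genes. Dashed lines mark 2-fold. HIF targets have the lowest median (-0.51), and all 34 mitosis genes lie above 0.

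HIF targets had the lowest median tag ratio of the classes with at least 3 genes called in both libraries, -0.51, and -0.25 per kb. Of 22 measured members, 18 were called in both libraries, Egln3 (670 tags), P4ha2 (333) and Car12 (67) in WT alone, and Adm in neither. Bnip3l was not measured. Of the 18, 13 lay below 0 per kb and 5 above. By tag ratio 17 lay below 0, each with its interval below 0, 9 lay below -0.5 and 5 below -1. None lay above 0.5. At these tag levels a WT region was nearly always called in KO for Egln3 (99.6% from 400 to 799 tags) and P4ha2 (96.2% from 200 to 399).

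The genes with the largest differences act in metabolism and blood supply. Ak4, a mitochondrial adenylate kinase gene, held 988 tags in WT and 205 in KO at chr4:101418681-101421322 (-2.52, interval -2.74 to -2.30, and -2.11 per kb). Vegfa, which encodes the main growth factor of blood vessels, held 2511 and 733 tags at chr17:46027341-46032939 (-2.03, interval -2.14 to -1.91, and -1.20 per kb). Its WT peak spanned 5599 bp and its KO peak 3040 bp. Bnip3, whose product marks mitochondria for removal, held 821 and 387 tags (-1.33, and -0.69 per kb). These 3 were lower in KO by both measures.

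At 4 other HIF targets the difference was mainly one of width. Ankrd37 held 549 and 281 tags (-1.22), but its ratio was -0.28 per kb with a width ratio of -0.99. Pdk1, which encodes a kinase that closes the entry to the citric acid cycle, held 703 and 452 tags (-0.89), and 0.02 per kb. The glucose transporter gene Slc2a1 had 1190 and 1014 tags (-0.48) and 0.33 per kb, and its WT peak of 4850 bp exceeded its KO peak of 2657 bp. Ero1a, an oxidoreductase gene, had 1052 and 950 tags (-0.40) and 0.45 per kb. At these 4 genes the ratio per kb was much nearer to 0 than the tag ratio or had the opposite sign.

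Genes of the HIF feedback loop, of signalling and of glycolytic control differed among themselves. Egln1, which encodes the main prolyl hydroxylase that marks HIFs for destruction, held 1863 and 1754 tags (-0.34, and -0.21 per kb), whereas its relative Egln3 was not called in KO. Mxi1, an antagonist of Myc, held 1660 and 1025 tags (-0.94) at nearly equal width, and -1.10 per kb. Ddit4, an inhibitor of mTORC1, held 1922 and 1572 (-0.54, and -0.31 per kb). Pfkfb4 (119 and 63 tags, -1.17, and -0.99 per kb) and Pfkfb3 (633 and 763 tags, 0.02) encode enzymes of the same step that controls glycolysis. Pfkfb3 was the member with the highest ratio.

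**Figure D3:**
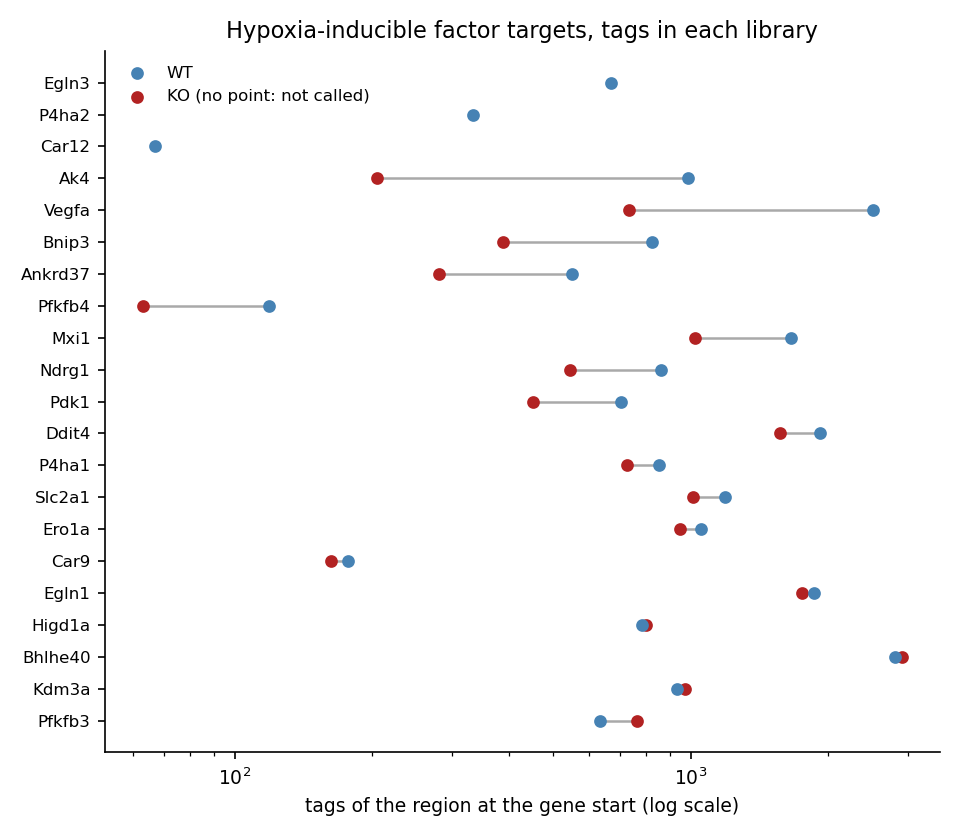
H3K4me3 tags (x axis, log scale, not scaled to depth) in WT (blue) and KO (red) at the start of each HIF target called in at least 1 library. KO tags lie below WT tags at 14 of the 18 genes called in both, although the median region had 1.19 times as many tags in KO, and the 3 genes at the top were not called in KO.

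Relative to the median region, glycolytic enzymes had narrower regions and lower tag ratios in KO, at a density close to that of the median region. Of 16 genes, 14 were called in both, 9 of them with fewer tags in KO before centring, and Aldoc (209 tags) and Eno2 (51) in WT alone. The median tag ratio was -0.28, the median per kb 0.01 and the median width ratio -0.41. Of the 14, 13 had a tag ratio below 0, 12 with their interval below 0, and 6 had a width ratio below -0.5. Gpi1, the second enzyme of the pathway, held 1279 tags over 6130 bp in WT and 937 over 3156 bp in KO (-0.70, and 0.20 per kb). Eno1, an enolase gene, held 1893 tags over 7958 bp and 1839 over 4641 bp (-0.29, and 0.43 per kb). Ldha, which encodes the enzyme that makes lactate, held 1557 and 1556 tags (-0.25, and 0.31 per kb). Hk1 (-0.04) and Pfkm (0.02) lay closest to 0, and their isoenzyme genes Hk2 (-0.17) and Pfkl (-0.37, and -0.20 per kb) had lower tag ratios.

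**Figure D4:**
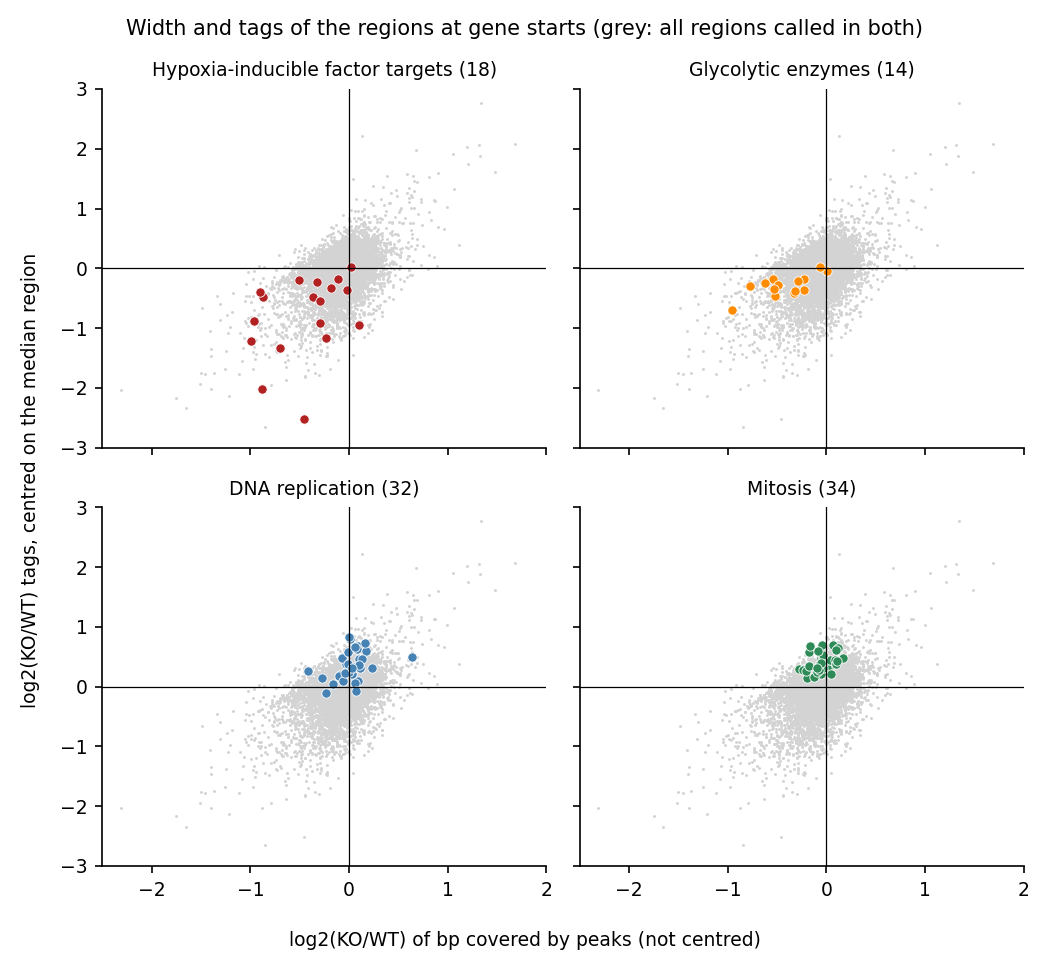
Width ratio (x axis, log2 of bp in KO over WT) against tag ratio (y axis, log2, centred) for genes of 4 classes (colours) over all 10615 regions called in both (grey). Glycolytic genes spread to the left, with a median width ratio of -0.41, and mitosis genes lie above 0 near a width ratio of 0 (median -0.05).

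Genes of DNA replication held more tags in KO relative to the median region. All 32 were called in both libraries, with a median ratio of 0.33 and of 0.23 per kb. Of these, 30 lay above 0, 26 with their interval above 0, and 9 lay above 0.5. None reached 1. Prim1, the small subunit of primase, held 145 tags in WT and 308 in KO over 1438 bp in each (0.84, interval 0.55 to 1.12). Mcm2, of the replicative helicase, held 256 and 526 (0.79), and Rrm2, of ribonucleotide reductase, held 813 and 1612 (0.74). Their relatives had lower tag ratios, with Mcm3 at 0.10 and Rrm1 at 0.27, though Rrm1 was at 0.62 per kb and Rrm2 at 0.52. The DNA polymerase epsilon genes Pole (-0.11) and Pole2 (-0.07) were the only members below 0, with intervals that include 0.

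Mitosis genes behaved alike as a class. All 34 were called in both and all 34 lay above 0 with their interval above 0, from Ccna2 (866 and 1144 tags, 0.15) to Cdk1 (658 and 1271 tags, 0.70). The median was 0.39, and 0.38 per kb, and the median width ratio was -0.05, that of all genes. Cdk1 encodes the kinase that starts mitosis, and its WT and KO peaks spanned 2898 and 3039 bp. Plk1, another mitotic kinase gene, held 864 and 1659 tags (0.69), and Top2a, a topoisomerase gene, 517 and 979 (0.67). Of the 34, 8 lay above 0.5. No gene of either cell cycle class lay below -0.5.

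**Figure D5:**
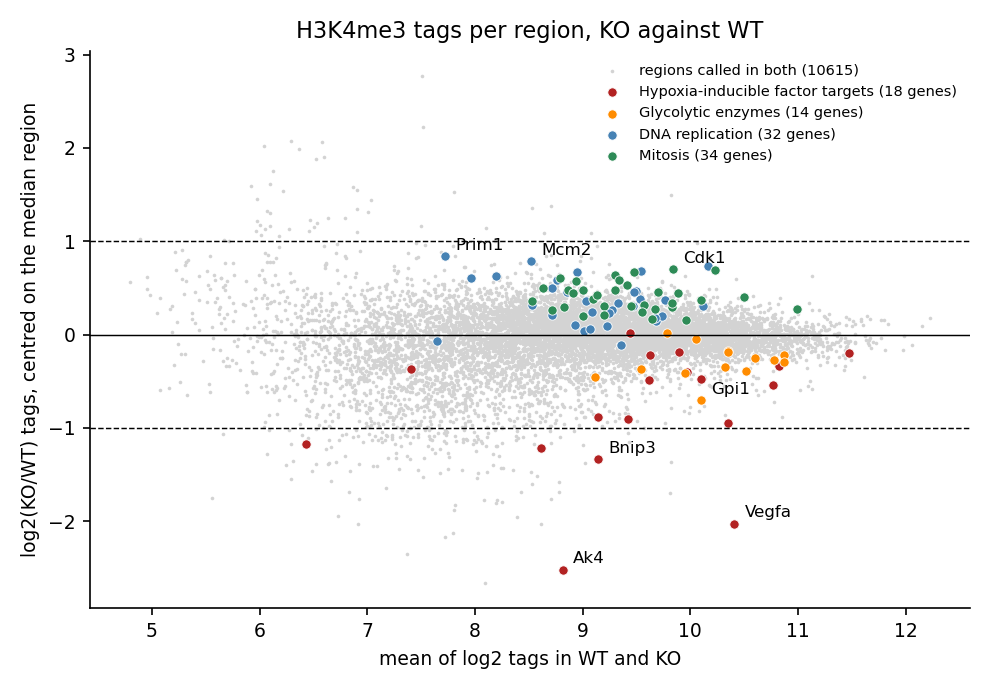
Tag ratio (y axis, log2, centred on the median region) against the mean of log2 tags in WT and KO (x axis) for all regions called in both (grey) and for genes of 4 classes (colours). Dashed lines mark 2-fold. Ak4 and Vegfa lie far below the cloud, at -2.52 and -2.03, and replication and mitosis genes lie mostly above 0.

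Several other classes had medians above 0 that were smaller than those of the 2 cell cycle classes. All 25 cytosolic ribosomal protein genes were above 0, with a median of 0.23, from Rpl7 (0.00) to Rps4x (0.66). Of 25 respiratory chain genes 24 were above 0, with a median of 0.17 and Ndufa9 highest (0.40), and 14 had their interval above 0. Housekeeping genes had a median of 0.12, with 10 of 15 above 0, from Pgk1 (-0.46, but 0.01 per kb) to Gusb (0.41). The Myc network and G1 regulators were mixed, with 10 of 17 above 0. Cdk4, of the G1 kinase, was highest (597 and 943 tags, 0.41, and 0.15 per kb), Myc was at 0.22 and Mxi1 lowest.

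Windows of 300 bases were searched on both strands in 17491 RefSeq promoters of protein-coding genes. A match is a description of letters and not a binding site. The CHR (TTTGAA) was in 20 of the 27 mitosis promoters with a window (74.1%), in 11.8% of the 8520 promoters called in both and in 16.4% of all. It was also in 26.3% of the 118 promoters with a ratio above 0.5, which include those of Cdk1 and Plk1. The E2F motif (TTCCCGC or TTGGCGC) was in 15 of 27 replication promoters (55.6%), in 13.4% of those called in both and in 8.86% of all. Among the 118 promoters with a ratio above 0.5 its share was 13.6%, close to that of promoters called in both. The CCAAT box (CCAAT) was in 77.8% of mitosis and 66.7% of replication promoters, in 39.8% of those called in both and in 38.9% of all. It was also in 62.5% of the 16 HIF target promoters, in all 10 of the sterol and fatty acid promoters and in 88.9% of the 9 clock promoters.

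The hypoxia core (ACGTG or GCGTG) was in 14 of 16 HIF target promoters (87.5%), in 66.5% of those called in both and in 49.5% of all. Other classes had shares of 81.8% (11 nutrient transporter and mTORC1 promoters), 76.5% (17 respiratory chain) and 71.4% (14 glycolytic). Mitosis (59.3%) and replication promoters (51.9%) had lower shares. The core was in 63.6% of the 88 promoters with a ratio below -1, close to the share in all promoters called in both. The E-box CACGTG contains this core, and was in 10.5% of promoters called in both. The Tcf/Lef motif (CTTTGAT or CTTTGAA, the latter of which contains the CHR) was in 5.53% of those called in both, in 6.82% of those with a ratio below -1 and in 7.77% of all. CpG content followed calling more than direction. The median window held 22 CpGs for genes called in both, 21 for WT alone, 7 for KO alone (25 promoters) and 3 for neither, and 17.5 for ratios below -1 and 16 for ratios above 0.5.

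Granzymes, the proteases of cytotoxic granules, differed among themselves. Gzmb held 1022 tags in WT and 1842 in KO at chr14:56258801-56262693 (0.60, interval 0.49 to 0.71), and Gzma 1461 and 2273 (0.39, interval 0.29 to 0.48). Gzmc held 353 and 313 (-0.42, interval -0.64 to -0.20). Per kb these 3 came to 0.51, 0.58 and -0.46. Gzmd (64 tags) and Gzme (81) were called in WT alone, at levels where 20.7% of WT regions were called in KO, and 5 granzymes in neither. Genes for loading and release of granules stayed near 0, with a median of 0.00 over 15 of 16. Ctsw, a cathepsin gene of killer cells, was the highest (454 and 814 tags, 0.59), and the perforin gene Prf1 the lowest (1516 and 1499 tags, -0.27).

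Secreted ligands went in both directions. The chemokine genes called in both all lay above 0.5. Xcl1 held 252 tags in WT and 636 in KO (1.09, interval 0.88 to 1.30), Ccl3 139 and 306 (0.89), Ccl4 308 and 616 (0.75) and Ccl5 146 and 268 (0.63). The 5 other chemokine genes were called in neither library. Among death ligands and cytokines, Tnfsf8 held 189 and 450 tags (1.00), but its ratio was 0.28 per kb with a width ratio of 0.66. Tnfsf10, which encodes TRAIL, held 373 and 784 tags (0.82, and 0.48 per kb). Ltb, which encodes lymphotoxin beta, was low, with 696 tags in WT against 277 in KO (-1.58, interval -1.78 to -1.38, and -1.20 per kb). Lta (103 tags), Csf2 (82) and Tnfsf14 (45) were called in WT alone. Ifng (-0.12) and Tnf (-0.01) had intervals that include 0.

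Receptors for homing and for target cells were described next. All 6 chemokine and homing receptor genes called in both lay below 0, 4 with their interval below 0, with a median of -0.27 and of -0.11 per kb, and 5 of the 6 lay below 0 per kb. Cxcr4, which holds cells in the bone marrow, held 379 and 234 tags (-0.94, and -0.80 per kb). Of 14 NKG2, CD94 and NKR-P1 genes, 9 were called in both with a median of -0.44, but 0.04 per kb. Of these 9, 6 lay below 0 by tag ratio, and 6 lay above 0 per kb. Klrd1, which encodes CD94, held 393 tags over 5185 bp in WT and 236 over 2250 bp in KO (-0.99, and 0.16 per kb). Klrb1f was high (363 and 646 tags, 0.58), and Klrc2, with 96 and 47 tags (-1.28, and -0.55 per kb), was below the minimum of 100. Klrc1, which encodes the partner NKG2A, was called in WT alone (211 tags), as was Klrc3 (62), and Klrg1, a receptor of mature NK cells, in KO alone (158 tags).

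Ly49 genes were weakly marked. Of 11, Klra7 and Klra8 were called in both (0.04 and -0.10), Klra4 (99 tags) and Klra3 (23) in WT alone and Klra9 (110) in KO alone. These genes are near-identical copies that differ between mouse strains, so their values are uncertain.

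Signalling genes of the NK cell surface held a few large differences within classes that lay near 0. Zap70, a kinase of ITAM signalling, held 568 tags over 4687 bp in WT and 210 over 1964 bp in KO (-1.68, interval -1.91 to -1.46, and -0.49 per kb). The related kinase gene Syk was at 0.08, and the median of 12 Fc receptor and ITAM genes was 0.09. Fcgr3, which encodes the Fc receptor CD16, held 284 and 217 tags (-0.64), and 0.08 per kb. Il2ra, the high-affinity IL-2 receptor chain gene, held 116 and 54 tags (-1.35), but -0.01 per kb, while Il2rb, with 3023 and 3440, was at -0.06, and at 0.37 per kb. Cish, a target of STAT5, was the highest IL-2 pathway gene (1303 and 1920 tags, 0.31). Cd27, a costimulatory receptor of immature NK cells, held 213 and 118 tags (-1.10, and -0.60 per kb), and Tnfrsf1a was the highest receptor gene of its class (0.34, and 0.18 per kb). Fas was called in WT alone (79 tags). Of the checkpoint receptors, Tigit (199 tags) and Ctla4 (153) were called in WT alone and Crtam (90) in KO alone, while Havcr2 (222 and 196 tags, -0.43, and -0.18 per kb), Lag3 (-0.04) and Cd96 (0.03) were called in both.

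Genes of the Tcf1 pathway and its targets were mixed, with class medians slightly below 0 at the main settings. The Tcf/Lef factors and corepressors had a median of -0.15 over 10 of 12 genes, with 7 below 0. Tcf7l1 (251 and 178 tags, -0.75) and Bcl9, a coactivator gene (488 and 371, -0.64), were lowest, Tcf7l2 was highest (0.19) with an interval that includes 0, and the corepressor gene Tle1 was called in WT alone (225 tags). Wnt feedback and target genes had a median of -0.15 over 7 of 14, with 4 below 0 and 3 above. Axin2, a feedback inhibitor, held 453 and 247 tags (-1.12, interval -1.35 to -0.90, and -0.77 per kb), and Nkd1, another inhibitor, 163 and 122 (-0.67). Rnf43, which encodes a ligase that removes Wnt receptors, was at 0.50 (601 and 1007 tags). Nkd2 (60 tags) and Apcdd1 (100) were called in WT alone. The median of the Wnt genes was 0.040 with an FDR of at most 1%, -0.06 with scores of at least 100, and -0.05 both with a region over the start and without feature ends as starts.

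Lineage transcription factors carried strong marks and small ratios. All 19 were called in both, with a median of 0.01 and a range from Nfil3 (-0.38, but -0.04 per kb) to Zeb2 (0.26). Tbx21 (2092 and 2840 tags, 0.19) and Eomes (2434 and 2930 tags, 0.02) encode the T-box factors that define mature NK cells. Integrins (median 0.07, from Itgb7 at -0.43 to Itgax at 0.39), BCL-2 family genes (0.01, from Bbc3 at -0.34 to Pmaip1 at 0.44, and 0.27 per kb) and AP-1, EGR and NR4A genes (0.02, from Junb at -0.24, but 0.11 per kb, to Fosb at 0.30) likewise had tag ratios within 0.5 of 0. So did the nutrient transporter and mTORC1 genes, with a median of 0.00 and Mlst8 highest at 0.37.

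Lipid, clock and immune presentation genes completed the classes. Of 18 sterol and fatty acid genes called in both, all 18 were narrower in KO, while the median tag ratio was -0.06. Scd1, a desaturase gene, held 392 and 127 tags (-1.88, interval -2.16 to -1.59, and -1.29 per kb), and its relative Scd2 2514 and 1998 (-0.58, and -0.26 per kb). Acaca was called in neither. Among clock genes, Dbp (544 tags), Ciart (201) and Per3 (102), which are targets of the clock, were called in WT alone. Bhlhe41, a repressor in the clock, was highest (186 and 342 tags, 0.63, and 0.29 per kb), and 9 of 11 lay below 0. MHC class I genes had a median of 0.10, from Tap2 (-0.10) to Erap1 (0.35). Of 8 MHC class II genes, H2-Ab1 was called in WT alone (520 tags) and 6 in neither. The region within 1 kb of a start listed for H2-DMa held 4125 and 5545 tags (0.18). In each library this was the highest count of any region called in both. Whether it belongs to H2-DMa or to a neighbouring gene was not tested. Interferon-stimulated genes had a median of -0.03, from Oas1a (-0.51, and -0.25 per kb) to Ifit2 (0.67), and Rsad2 was called in WT alone (87 tags). Of 20 Hox genes, Hoxb4 was called in both (571 and 438 tags, -0.63, and -0.98 per kb), 1 in WT alone and 18 in neither.

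Width was smaller in KO in 64.4% of the regions called in both, with a median width ratio of -0.05 and quartiles of -0.16 and 0.04. Widths differed by 2-fold or more in few regions, 10 (0.0966%) wider and 36 (0.348%) narrower in KO. A width ratio below -0.5 was found in 325 (3.14%), and one above 0.5 in 69 (0.666%). With regions split into 10 bins of width, the narrowest bin had a median of -0.0067 and the widest one of -0.09. Across the 10615 regions, which share both libraries, tag and width ratios had a Pearson correlation of 0.51, and both rest on the same peak calls. Most regions (10507) held 1 peak in each library.

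Among regions with at least 500 tags in each library, the 5 with the lowest width ratios lay at or in Dennd2d, Stk17b, Rhoq, Ptprc and Ptp4a3. Dennd2d held 907 tags over 6003 bp in WT and 518 over 2261 bp in KO, a width ratio of -1.41. Stk17b, which encodes a lymphocyte kinase, spanned 13528 bp in WT and 5368 bp in KO (-1.33), with 1708 and 1470 tags. Ptprc, which encodes the leukocyte antigen CD45, spanned 11993 and 5760 bp (-1.06), and Rhoq, which encodes a small GTPase, 10914 and 4421 bp (-1.30). Taken per kb, tags at these 4 were higher in KO, at 0.29, 0.81, 0.45 and 0.65. The region inside Ptp4a3, a phosphatase gene, had a width ratio of -1.05. The largest gains in width were smaller, at Camsap1 (0.61), C1qbp (0.60), Sbf1 (0.52), Chmp6 (0.51) and the end of Fam177a2 (0.51).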

How the data were processed

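ChIP-seq of H3K4me3 was compared between 1 WT and 1 KO library. Reads were aligned with Bowtie2 2.1.0 and peaks called with MACS 1.4, per the submitters' processing notes, which list mm10, GRCm38 and GRCh37 without saying what each was used for. Positions were read as GRCm38. Which control track and which settings served for peak calling is not given in the sources used here. Per the file headers, the deposited lists give for each peak a count of tags, a score (10 times the negative log10 of the p-value), a fold enrichment ratio and an FDR in percent. The fold enrichment was not used. Rows were reduced to distinct peaks, and starts, which count from 0, were raised by 1. Sums of tags cover peaks and are not depths, which are unknown.

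Peaks that overlapped by at least 1 bp were merged, tags were summed per library, and log2 ratios of KO over WT were centred on the median region called in both. Gene starts came from RefSeq promoters (GRCm38.p6, 17491 genes), or, for 2508 genes, from gene ends by the strand of the deposited features. A further 1686 genes of unknown strand had no region within 2.5 kb of either end, and 198 with one were left out, so the share of unmarked genes is approximate. The 5' ends of deposited features were added as starts after genes such as Ywhaz were seen to have no region. Without them, both libraries called 10104 genes, WT alone 1244 and KO alone 30. Of 547 listed genes in 39 classes, 537 were measured.

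Members, lists and motifs were chosen with earlier results of these data known. Named were the 10 highest and 10 lowest regions by tag ratio whose ratio per kb had the same sign, the 8 with most tags in each library alone, the 5 highest and lowest widths, and, per class, genes beyond 2-fold, genes called in 1 library, and otherwise the highest and lowest. A gene that this rule names is not reported here. The calculation of ratios was run on simulated data, in which 199 of 200 changed regions among 10615 were recovered with 0 false. The simulated counts held counting error alone, without other differences between libraries and without separate peak calling. Observed ratios spread more, with an SD of 0.34 against a median counting error of 0.088. The simulation therefore does not show how many of the observed 2-fold ratios are false. Alternatives were other minimums of tags, scores of at least 100, an FDR of at most 1%, lists of equal length, other merging, centring, chromosomes and windows, and tags per kb. Scripts ran in Python 3.11.15 with pandas 2.3.3, numpy 2.4.6, matplotlib 3.10.9 and scipy 1.17.1.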

Additional observations from a re-analysis of the deposited data

How the results depend on the processing

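Of 139 values recomputed under alternatives, 112 kept their direction and were counted as the same, 26 moved and 1 reversed. Being counted as the same left room for sizeable shifts. Narrower regions numbered 36 as given and 24 with an FDR of at most 1%. The Wnt median was -0.15 as given and -0.05 with a region over the start. No paired analysis was possible because each genotype had 1 library. The median width ratio and the medians of replication and mitosis genes were counted as the same under every alternative run, though that of replication genes was 0.33 as given and 0.23 per kb. Counting per kb and centring on total tags cannot change widths or calls, so those values were fixed and are among the 112. Under the other alternatives the median width ratio lay between -0.052 and -0.050. The median of HIF targets was -0.25 per kb and -0.67 without merging, that of granzymes 0.51 per kb, and that of Wnt genes 0.040 with an FDR of at most 1%, and between -0.24 (per kb) and -0.05 (region over the start) under the others. Taken per kb, 7 regions were higher and 82 lower in KO. With scores of at least 100, 17 were higher, 99 lower, 0 wider (a count with no test behind it), 54 called in KO alone and 2105 in WT alone. With an FDR of at most 1%, 21 were higher, 65 lower, 4 wider, 8 called in KO alone and 3769 in WT alone, up from 3102. With lists of equal length, 11 were higher, 3 wider, 788 called in WT alone and 752 in KO alone. With at least 400 tags, 10 were higher, 48 lower, 1 wider and 20 narrower. With peaks within 1 kb joined, 56 were narrower. Beyond 0.5, a threshold chosen after seeing the data, 203 were higher, 803 lower, 325 narrower and 69 wider. The causes were not tested. Leaving out regions at a Tcf1 antibody peak and leaving out feature ends as gene starts were also chosen after seeing the data.

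Sequencing depth is unknown, and weak regions were often called in 1 library alone. Of WT regions with 100 to 199 tags, 66.5% were called in KO, so a call in 1 library below 200 tags does not show that the mark was absent in the other. Differences in chromatin yield, antibody recovery and sequencing depth between the 2 libraries cannot be told apart from genotype.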
